A study of Ovis aries with 3 samples.

Results

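*HES7*, *MSGN1*, *TBX6* and *DLL3* are genes of the presomitic mesoderm and of the segmentation of the body axis, and they were followed here across whole sheep embryos. They were chosen by symbol, are 4 of the 26478 genes listed in the deposited tables, and were each found under 1 identifier (ENSOARG00020022603, ENSOARG00020017429, ENSOARG00020015766 and ENSOARG00020025054, in the same order). The 3 libraries were whole Hu sheep (HS) embryos at embryonic day 16 (E16 HS) and day 19 (E19 HS), and a whole Hulunbuir short-tailed sheep (HSTS) embryo at day 19 (E19 HSTS). The HSTS breed carries a missense mutation in the DNA-binding domain of *T* and the study genotyped its animals as homozygous, whereas HS carries the wild-type allele. The libraries thus differ in breed as well as in that allele, and those effects cannot be told apart. For E16 HS the label names 1 embryo, while the methods speak of several, so whether cells were pooled could not be settled.

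Somites are laid down in sequence from the presomitic mesoderm, which is refilled by caudal progenitors of the tail bud that express *T* and *CDX2*. *MSGN1* and *TBX6* are transcription factors that move such progenitors into the presomitic mesoderm, and *HES7* is the oscillating repressor of the segmentation clock. *DLL3* is a divergent Notch ligand needed for regular somite boundaries, and it is also known from the developing nervous system. *MEOX1* marks newly formed somites, and *NEFM* and *STMN2* encode a neurofilament subunit and a microtubule regulator of neurons.

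Kept cells numbered 11329 in E16 HS, 10629 in E19 HS and 9618 in E19 HSTS, with 113213654, 88733467 and 99580051 unique molecular identifiers (UMIs) and medians of 9046, 6900 and 8675 UMIs per cell. Each condition had 1 library, so no spread between embryos could be measured and no test was made. All intervals are exact at the 95% level (Poisson for levels, binomial for shares and ratios) and cover counting error only. Cells with at least 3 of 8 red cell genes, which should lack the 4 genes, served as a measure of free RNA in the droplets. They numbered 2032 (17.9%) in E16 HS, 1406 (13.2%) in E19 HS and 2640 (27.4%) in E19 HSTS, with medians of 14126, 17716 and 17560 UMIs against 8064, 6345 and 7212 in the other cells. The libraries shared 38 to 42 barcodes per pair, at most 0.369% of a library.

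*MSGN1*, *TBX6* and *HES7* were rare transcripts, present mainly at E16. *HES7* gave 105 UMIs in 93 cells of E16 HS, 6 UMIs in 6 cells of E19 HS and 1 UMI in E19 HSTS. *MSGN1* gave 77 UMIs in 64 cells, 12 UMIs in 10 cells and 1 UMI, and *TBX6* gave 32 UMIs in 31 cells, 3 UMIs in 3 cells and 2 UMIs in 2 cells. In each of these genes the E16 HS library stood far above the E19 libraries. *DLL3* was of another order of abundance. It gave 4253 UMIs in 1374 cells (12.1%) of E16 HS, 1455 UMIs in 598 cells (5.63%) of E19 HS and 1087 UMIs in 443 cells (4.61%) of E19 HSTS. The order of the libraries was E16 HS, E19 HS, E19 HSTS for all 4 genes, but the Poisson intervals of the levels of E19 HS and E19 HSTS overlapped for *HES7* (0.0248 to 0.147 against 0.000254 to 0.056 CPM) and *TBX6* (0.00697 to 0.0988 against 0.00243 to 0.0726 CPM), where CPM are UMIs per 1000000 UMIs of the kept cells.

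**Figure D1:**
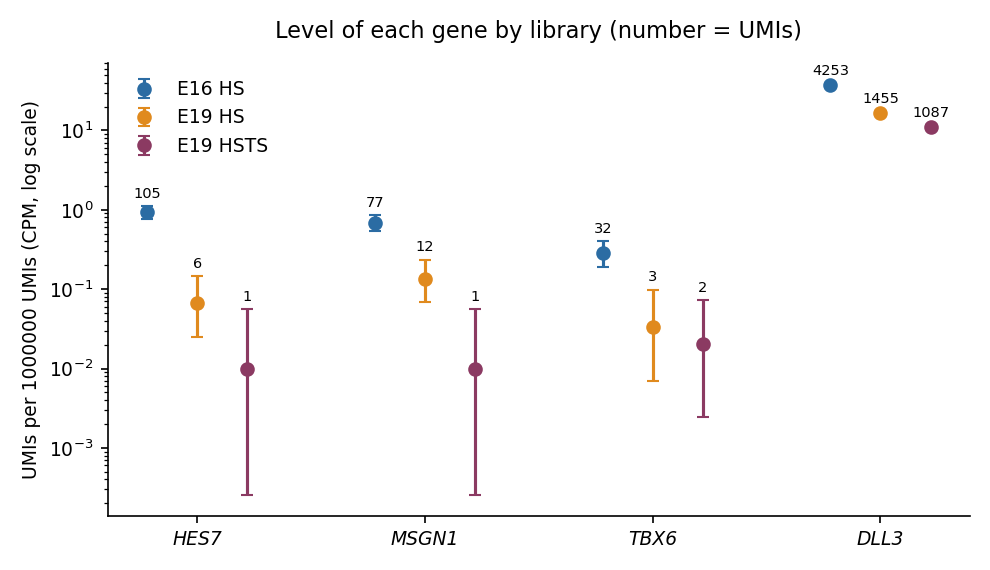
Level of each gene in each library, in UMIs per 1000000 UMIs (CPM) on a logarithmic axis. Points are the summed level of 1 library, bars are exact Poisson intervals at the 95% level, and numbers are UMIs. *DLL3* lies between 10.9 and 37.6 CPM, and the other genes all lie under 1 CPM.

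Set against free RNA, the 3 rare genes were more frequent outside the red cell gate at E16, clearly so for *HES7*. In E16 HS, *HES7* was detected in 0.957% (0.769 to 1.18%) of the cells outside the red cell gate against 0.197% (0.0537 to 0.503%) inside it. *MSGN1* was detected in 0.645% (0.493 to 0.830%) against 0.197% (0.0537 to 0.503%), and *TBX6* in 0.312% (0.209 to 0.448%) against 0.0984% (0.0119 to 0.355%), so that the intervals of both overlapped, narrowly for *MSGN1*. No red cell of E19 HS or E19 HSTS held a UMI of these genes, which allows shares of up to 0.262% and 0.14%. These limits follow from the number of red cells alone and not from UMIs seen in them. The shares over all kept cells at E19, from 0.0104% to 0.0941%, lay under the limits. By these shares alone, free RNA could not be told from expression at E19, and ratios that use these counts carry that limit. The other genes found in these cells are given further on. *DLL3* was detected in 13.9%, 6.32% and 5.89% of the cells outside the gate in E16 HS, E19 HS and E19 HSTS, against 4.13%, 1.07% and 1.21% inside it, above background in each library. At an equal depth of 3000 UMIs per cell, which 1317, 1345 and 1106 cells did not reach, *DLL3* was in 7.14%, 3.52% and 2.71% of the cells, and *HES7* was in 0.338%, 0.0285% and 0.00288%.

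Between stages of HS, all 4 genes were more than 2-fold higher at E16, where 8.06% of 14127 genes with at least 20 UMIs over the pair of libraries were. The ratio of E16 HS to E19 HS was 13.7 (6.09 to 38.2) for *HES7*, 5.03 (2.72 to 10.2) for *MSGN1*, 8.36 (2.62 to 42.7) for *TBX6* and 2.29 (2.16 to 2.43) for *DLL3*. The intervals of the 3 rare genes overlapped each other and excluded 1. The *DLL3* ratio came to 1.79 with thinned cells and 1.98 with TMM factors, under the 2-fold limit. In a whole embryo fewer presomitic cells and less RNA per cell cannot be told apart from such sums, so the cells that hold the genes were examined next.

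Between breeds at E19, only *DLL3* had at least 20 UMIs over the pair of libraries. Its level was 0.666 times (0.615 to 0.721) that of E19 HS in E19 HSTS, which is not past 2-fold, where 5.71% of 13984 genes were in either direction and 3.30% were in the lower one. Without the red cells, which made up a larger share of E19 HSTS, the ratio was 0.831 (0.766 to 0.902). *MSGN1*, with 1 UMI against 12, had a ratio of 0.0743 (0.00174 to 0.502), an interval below 1. Its shares of cells in both libraries were under the limits that the number of red cells allows. The intervals of *HES7* (0.149, 0.00323 to 1.22) and *TBX6* (0.594, 0.0496 to 5.19) held 1, so a difference was not detectable at this depth. This comparison and that between stages share the E19 HS library.

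At E16 the 3 rare genes were found mostly in cells that also held *DLL3*. At least 1 of *HES7*, *MSGN1* and *TBX6* was detected in 177 cells of E16 HS, and *DLL3* was detected in 134 of these (75.7%, 68.7 to 81.8%) against 11.1% of the other cells. If detection were independent among cells of like depth (10 groups of cells ordered by their UMIs), 25.2 such cells would be counted. *DLL3* was in 59 of the 93 *HES7* cells (63.4%), in 57 of the 64 *MSGN1* cells (89.1%) and in 29 of the 31 *TBX6* cells (93.5%). The share was thus lower in *HES7* cells (52.8 to 73.2%) than in *MSGN1* cells (78.8 to 95.5%), whose intervals do not overlap. Thinned to 3000 UMIs, these shares were 50.1%, 73.6% and 64.9%, against 6.98 to 7.08% of the other cells.

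The rare genes met each other less often than they met *DLL3*, as their low counts allow. *HES7* and *MSGN1* were found together in 6 cells against 0.609 by independence, *MSGN1* and *TBX6* in 4 against 0.207, and *HES7* and *TBX6* in 2 against 0.314. In E16 HS, 9 cells held 3 of the 4 genes and 1 cell held all 4. *DLL3* was found without any of the others in 1240 of its 1374 cells.

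*T* or *CDX2* was detected with these genes more often than independence gives. They were detected in 56 of the 93 *HES7* cells (60.2%, 49.5 to 70.2%), 41 of the 64 *MSGN1* cells (64.1%, 51.1 to 75.7%) and 21 of the 31 *TBX6* cells (67.7%, 48.6 to 83.3%), where independence gives 11.7, 7.86 and 3.98 cells. In thinned cells the shares were lower, at 32.9%, 35.1% and 41.6%, against 5.90 to 5.96% of the cells without the respective gene. *T* alone was in 19.4%, 25% and 16.1% of the *HES7*, *MSGN1* and *TBX6* cells, against 1.31 to 1.42% of cells without the respective gene. Seen from the caudal side, *T* cells held *HES7*, *MSGN1* or *TBX6* in 34 of 165 cases (20.6%) and *DLL3* in 104 (63.0%). *CDX2* cells, of which there were 1213, held the rare genes in 8.57% and *DLL3* in 36.8%.

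*MEOX1* was in few of these cells, as it was in the cells without the respective gene (5.97 to 6.01%). It was found in 2 of the *HES7* cells (2.15%, 0.262 to 7.55%) and 2 of the *MSGN1* cells (3.12%, 0.381 to 10.8%), where independence gives 6.57 and 4.33. In the *TBX6* cells it was found in 3 (9.68%, 2.04 to 25.8%), where independence gives 2.26. Each of these intervals held the share of the other cells. *NEFM* or *STMN2* was found in 33 of the 177 cells, against 32.8 by independence. *NEFM* alone was in 14 of the *HES7* cells against 5.15, and *STMN2* in 10 against 13.2.

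**Figure D2:**
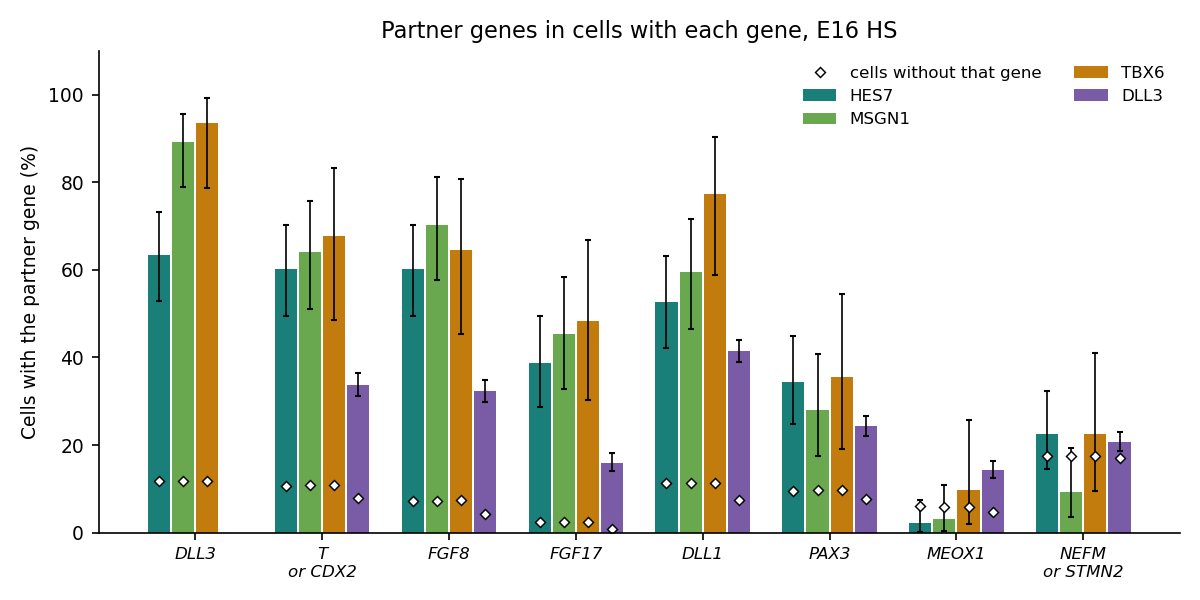
Share of the cells with *HES7*, *MSGN1*, *TBX6* or *DLL3* in E16 HS that also held a partner gene (%). Bars are shares with exact binomial intervals at the 95% level and diamonds are the shares in cells without that gene. *DLL3*, *T* or *CDX2*, *FGF8*, *FGF17* and *DLL1* stand far above the diamonds for each gene. *MEOX1* stands above its diamond for *DLL3* (14.3% against 4.82%). For *HES7* and *MSGN1* it stands below, with intervals that reach the diamond.

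Signalling genes of the tail bud were the closest companions. Likeness was measured by the phi coefficient of detection over the 11329 cells of E16 HS, among 10632 genes, and these cells share 1 library and differ in depth, so the values are descriptive. *FGF17*, an FGF ligand of the caudal end, ranked foremost for *HES7* (phi 0.20), *MSGN1* (0.20) and *TBX6* (0.15), and was in 38.7%, 45.3% and 48.4% of their cells. *FGF8*, the related ligand of the tail bud, was in 60.2%, 70.3% and 64.5%. *SLC2A5*, a fructose transporter (phi 0.17 with *HES7* and with *MSGN1*), was among the 5 genes most like these. So were *WNT5B* for *HES7* (0.16), *DLL3* for *MSGN1* (0.18), and *DLL3* and *CITED1* for *TBX6* (0.13 and 0.12).

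Clock partners differed among themselves. Of the 177 cells, *DLL1*, the activating Notch ligand, was in 102 (57.6%) against 23.6 by independence, and *LFNG*, the cyclic glycosyltransferase that modifies Notch, was in 24 (13.6%) against 4.71. *HES1*, a Notch target, was in 1 cell against 5.99. Among WNT and FGF targets, *DUSP6*, a phosphatase of FGF signalling, was in 150 cells (84.7%) against 57.9, *NKD1* in 88 against 26.2 and *AXIN2* in 16 against 4.25. *PAX3*, which is expressed in the anterior presomitic mesoderm and the dorsal neural tube, was in 57 (32.2%) against 19.9.

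Genes of the forming boundary were also met, and are read against the 12.1% of all cells of E16 HS with *DLL3* and the count of rare gene cells that independence gives. *MESP2*, which sets the position of the next boundary, was detected in 8 cells of E16 HS, all of them with *DLL3* (63.1 to 100%) and 1 with *TBX6*. *RIPPLY1*, which ends the presomitic program, was in 16 cells, 14 of them with *DLL3* and none with *HES7*, *MSGN1* or *TBX6*, where independence gives 0.343. *RIPPLY2* was in 239 cells, of which 89 (37.2%, 31.1 to 43.7%) held *DLL3* and 9 (3.77%, 1.74 to 7.03%) held a rare gene, where independence gives 32.5 and 4.21. *ALDH1A2*, the retinoic acid synthesis gene of somites, was in 5 of the 177 cells against 10.3 by independence. *RIPPLY1* kept its tie to *DLL3* at E19, with 10 of 11 cells in E19 HS and 7 of 8 cells in E19 HSTS. The shares of the other boundary genes were lower than at E16, and so was the share of all cells with *DLL3*. *RIPPLY2* cells held *DLL3* in 13 of 84 cases (15.5%, 8.51 to 25%) in E19 HS and 14 of 95 (14.7%, 8.3 to 23.5%) in E19 HSTS. Independence gives 4.94 cells in E19 HSTS. The *DLL3* level in *RIPPLY2* cells was 155, 52.4 and 30.9 CPM in E16 HS, E19 HS and E19 HSTS. In the cells without *RIPPLY2* it was 34.6, 16.1 and 10.7 CPM. *MESP2* cells held *DLL3* in 0 of 2 and 1 of 7, too few to compare with E16.

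*DLL3* extended from caudal cells into *MEOX1* cells at E16. It was detected with *T* or *CDX2* in 465 cells (33.8%, 31.3 to 36.4%) against 169 by independence, and with *MEOX1* in 197 (14.3%, 12.5 to 16.3%) against 93.9. Its association with *NEFM* or *STMN2* was weak, with 285 cells (20.7%) against 253, and against 17.1% of the cells without *DLL3*. In thinned cells the order was reversed, with 9.08% of *DLL3* cells against 10.9% of the others. Among the genes most like *DLL3* in E16 HS were *CITED1* (phi 0.42), a transcriptional co-regulator found in 42.0% of *DLL3* cells against 4.64% of the others, then *DLL1* (0.35), *FGF8* (0.35) and *SLC2A5* (0.33).

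At E19 most *DLL3* UMIs were in cells with *NEFM* or *STMN2*, at 66.9% in E19 HS and 73.1% in E19 HSTS. *NEFM* or *STMN2* was in 301 of 598 *DLL3* cells (50.3%, 46.3 to 54.4%) of E19 HS against 151 by independence. In E19 HSTS it was in 252 of 443 (56.9%, 52.1 to 61.5%) against 101. Thinning left the shares at 52.6% and 61.0%, against 15.3% and 12.5% of the cells without *DLL3*. Among cells with at least 2 *DLL3* UMIs the shares were 73.9% (67.9 to 79.4%) and 77.4% (70.8 to 83.1%). The genes most like *DLL3* at E19 were *SCG3*, a secretory granule protein (phi 0.31 in E19 HS and 0.36 in E19 HSTS), *ONECUT1*, a transcription factor of early neurons (0.27 and 0.33), *PPP1R17* (0.27 and 0.36) and *TAGLN3* (0.25 and 0.32), with *NEUROD4* (0.28) in E19 HS and *COL5A3* (0.35) in E19 HSTS. These were computed over 10629 and 9618 cells and 10531 and 10543 genes. *DLL3* was in 83 of 129 cells (64.3%) with *NEUROD4*, a proneural factor of differentiating neurons, in E19 HS and in 80 of 136 (58.8%) in E19 HSTS. In E16 HS, *NEUROD4* was in 9 cells, 6 of them with *DLL3*. The label of a presomitic gene thus did not describe most *DLL3* cells at E19: 7.84% of the *DLL3* UMIs of E19 HS and 2.21% of those of E19 HSTS were in *T* or *CDX2* cells, against 45.2% in E16 HS.

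The cells with the most *DLL3* belonged to different kinds at the different stages. Among 83 cells of E16 HS with at least 10 *DLL3* UMIs, 66.3% held a caudal or presomitic gene (*T*, *CDX2*, *HES7*, *MSGN1* or *TBX6*) and 19.3% a neuronal one (*NEFM* or *STMN2*). Of 25 such cells in E19 HS, 84% held a neuronal gene and 12% a caudal or presomitic one. All 10 such cells of E19 HSTS held a neuronal gene and none a caudal or presomitic one. The highest count in a cell was 22 in E16 HS, 26 in E19 HS and 35 in E19 HSTS.

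**Figure D3:**
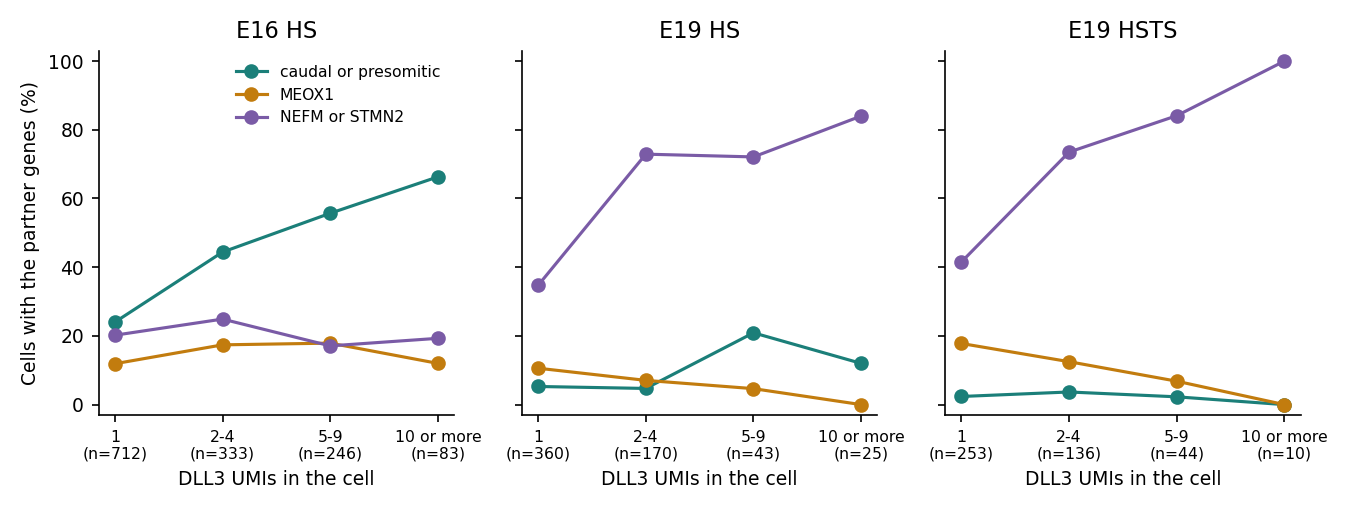
Share of *DLL3* cells that held a caudal or presomitic gene, *MEOX1*, or *NEFM* or *STMN2* (%), by the number of *DLL3* UMIs in the cell, in each library. Points are shares of the n cells given under the axis, and deeper cells have more UMIs of each gene. The caudal or presomitic share reaches 66.3% in E16 HS and 12% in E19 HS at 10 UMIs or more, where the neuronal share reaches 84% in E19 HS and 100% in E19 HSTS.

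When cells were sorted by these genes into caudal or presomitic alone, *MEOX1* alone, neuronal alone, more than 1 kind, and none, *DLL3* differed in opposite directions between stages. In cells with *NEFM* or *STMN2* alone, called neuronal here, it was lower at E16, at 21.4 CPM (19.1 to 23.9) against 51.1 CPM (47.8 to 54.5) in E19 HS. In *MEOX1* cells it was higher at E16, at 73.5 CPM (66.6 to 80.9) against 14.8 CPM (11.1 to 19.3). In caudal or presomitic cells it was 176 CPM (167 to 184) at E16 and 133 CPM (109 to 160) in E19 HS, a ratio of 1.32 (1.09 to 1.62). The ratio was 3.01 (2.32 to 3.97) in cells of more than 1 kind and 3.24 (2.86 to 3.67) in cells of none. Other neuronal transcripts were scarce in E16 HS as a whole, with *DCX* in 5 cells and *NEUROD4* in 9, against 64 and 129 in E19 HS. A single UMI of *STMN2* or *NEFM* placed a cell in this kind, and in the red cells of E16 HS these genes were in 2.81% and 1.08%, against 2.84% and 0.925% in those of E19 HS. These caudal or presomitic cells were 8.47% of all cells in E16 HS and 1.07% in E19 HS, whereas neuronal cells were 13.8% and 22%. The part of the *DLL3* UMIs in caudal or presomitic cells was 38.7% in E16 HS, 7.49% in E19 HS and 0.46% in E19 HSTS, and the part in neuronal cells was 7.55%, 62.5% and 70.1%.

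Between breeds at E19, the interval of the *DLL3* ratio held 1 in neuronal and *MEOX1* cells. It lay below 1 in the other kinds, furthest in caudal or presomitic cells. That name rests on the sorting genes alone, and the *T* or *CDX2* cells of the 2 breeds differed in other genes, as given below. In neuronal cells alone *DLL3* was at 51.8 CPM (48.2 to 55.6) in E19 HSTS against 51.1 CPM in E19 HS, a ratio of 1.01 (0.919 to 1.12). In all *NEFM* or *STMN2* cells the ratio was 0.947 (0.862 to 1.04), but 0.843 (0.760 to 0.935) without the cells of highest doublet score. In *MEOX1* cells it was 0.885 (0.615 to 1.28). In caudal or presomitic cells it was 5.35 CPM (1.74 to 12.5) in E19 HSTS against 133 CPM in E19 HS, a ratio of 0.0403 (0.0128 to 0.0970) from 5 UMIs in 96 cells against 109 UMIs in 114 cells. Over all *T* or *CDX2* cells, including those with *MEOX1* or a neuronal gene, the ratio was 0.177 (0.109 to 0.276), from 24 UMIs in 180 cells against 114 UMIs in 178 cells. Since *T* itself was lower in E19 HSTS, the cells with *CDX2* were also taken alone. *DLL3* was in 10 of 176 such cells of E19 HSTS (5.68%, 2.76 to 10.2%) and in 28 of 161 of E19 HS (17.4%, 11.9 to 24.1%).

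**Figure D4:**
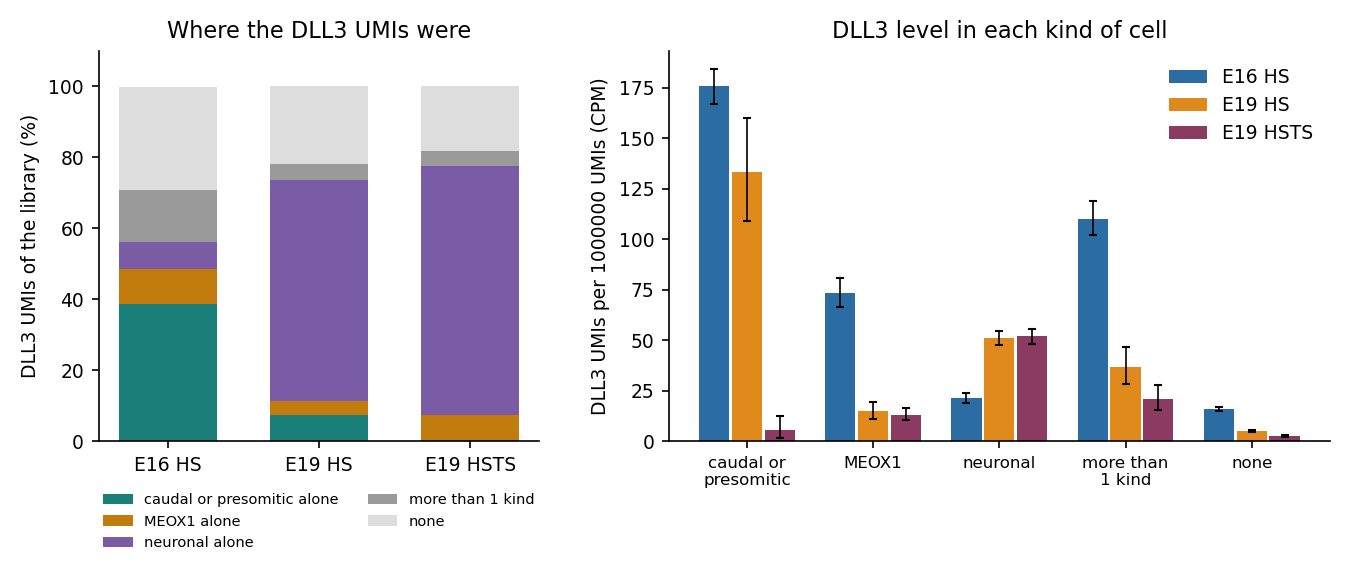
*DLL3* by kind of cell. On the left, the share of each library's *DLL3* UMIs (%) in cells with caudal or presomitic genes alone, *MEOX1* alone, neuronal genes alone, more than 1 kind, or none. On the right, the *DLL3* level of each kind (CPM, bars from 0, exact Poisson intervals at the 95% level): neuronal cells reach 51.1 and 51.8 CPM at E19, while caudal or presomitic cells reach 176, 133 and 5.35 CPM in E16 HS, E19 HS and E19 HSTS.

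The *T* or *CDX2* cells that held *DLL3* differed from those that did not. *DLL3* was in 465 of 1256 such cells (37.0%) of E16 HS, in 34 of 178 (19.1%, 13.6 to 25.7%) of E19 HS and in 10 of 180 (5.56%, 2.70 to 9.98%) of E19 HSTS. Co-detection exceeded independence in E16 HS (169 cells) and E19 HS (10.8 cells), and in E19 HSTS the count was close to it (9.56 cells). With *DLL3*, *FGF8* was in 57.2% of the *T* or *CDX2* cells of E16 HS and 58.8% of those of E19 HS, against 20.2% and 13.9% without *DLL3*. None of the 10 cells of E19 HSTS held *FGF8*, *CDX4* or *T* (0 to 30.8% for each). The epithelial genes *CLDN7* and *CLDN4* were less frequent with *DLL3* in E16 HS, at 18.1% against 27.2% and 9.46% against 16.1%. *EPCAM*, another epithelial gene, was alike there, at 52.7% against 52.2%. In E19 HS *CLDN7* and *CLDN4* were in 11.8% against 20.1% and 8.82% against 18.8%, with overlapping intervals, and *EPCAM* in 41.2% against 41.7%. In the 10 cells of E19 HSTS with *DLL3*, *CLDN7* and *CLDN4* were each in 30% (6.67 to 65.2%), against 25.3% and 20.6% without. Over all *T* or *CDX2* cells, *FGF8* was in 7.22% (3.9 to 12%) in E19 HSTS and 22.5% (16.6 to 29.3%) in E19 HS. In the same order, *T* was in 2.78% (0.908 to 6.36%) and 16.3% (11.2 to 22.6%), *CDX4* in 5% and 12.4%, and *CYP26A1* in 1.67% and 6.74%. *EPCAM* was in 44.4% and 41.6%, *CLDN7* in 25.6% and 18.5%, and *CLDN4* in 21.1% (15.4 to 27.8%) and 16.9% (11.7 to 23.2%). The part of this make-up, epithelial cells included, in the difference of *DLL3* was not tested.

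The few cells of E19 with a rare gene can be named individually. Of the 10 *MSGN1* cells of E19 HS, 8 held *FGF8*, 8 held *DLL1*, 7 held *DLL3*, 4 held *FGF17*, 4 held *T* and none held *MEOX1*, *NEFM* or *STMN2*. Independence among cells of like depth gives 0.606 with *DLL3*, 0.0367 with *T*, 0.56 with *MEOX1* and 2.54 with *NEFM* or *STMN2*. Of the 6 *HES7* cells, 3 held *DLL3*, of which 1 also held *NEFM* and *STMN2*, 1 held *CDX4*, and 1 held *T*. The cell with *T*, with 10472 UMIs in all, also held *MSGN1*, *DLL3*, *CDX2*, *FGF8*, *WNT5B* and *DLL1*. Of the 3 *TBX6* cells, 1 held *CDX2* with *DLL3*, and 2 held *STMN2*. In E19 HSTS the *HES7* cell and the *MSGN1* cell each held *MEOX1* and *DLL1*, the former with *DLL3*. The 2 *TBX6* cells held *STMN2*, and 1 of them also held *DLL3* and the caudal gene *CDX4*. These 4 cells had 12221 to 17504 UMIs, above the library's median, and none held *T* or *CDX2*. Over all 3 rare genes, *T* or *CDX2* was in 6 of 18 cells (33.3%, 13.3 to 59.0%) of E19 HS and 0 of 4 of E19 HSTS (0 to 60.2%), intervals that overlap.

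HOX genes, whose higher paralogue numbers mark more caudal positions, differed in these cells between stages. In the 177 *HES7*, *MSGN1* or *TBX6* cells of E16 HS, a HOX gene of number 9 was in 80.2%, of number 10 in 26.6% (20.2 to 33.7%), of number 11 in 13% and of number 12 (*HOXC12* or *HOXD12*) in none (0 to 2.06%). In the 18 cells of E19 HS, number 12 was in 11 (61.1%, 35.7 to 82.7%) and number 11 in 8 (44.4%), although the median depth was lower, 7120 against 9547 UMIs. Over all kept cells, number 12 was in 1.25% at E16 and 0.819% in E19 HS, so the library-wide shares did not run the same way.

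*DLL3* cells with *T* or *CDX2*, some of which are the same cells of the same libraries, showed the same difference between stages. Number 12 was in 4 of 465 (0.86%) in E16 HS, in 22 of 34 (64.7%, 46.5 to 80.3%) in E19 HS and in 0 of 10 (0 to 30.8%) in E19 HSTS. Among *T* or *CDX2* cells of E19 HS without *DLL3*, it was in 25 of 144 (17.4%, 11.6 to 24.6%). In all *T* or *CDX2* cells of E19 HSTS it was in 9 of 180 (5.00%, 2.31 to 9.28%), against 47 of 178 (26.4%, 20.1 to 33.5%) in E19 HS. Numbers 10 and 11 did not differ in these cells beyond their intervals, at 20.6% and 23.3% in E19 HSTS against 20.8% and 26.4% in E19 HS. *DLL3* cells with *MEOX1* held fewer genes of high number at E16, with number 9 in 83.2% and number 10 in 2.54% (0.829 to 5.82%). *MEOX1* cells without *DLL3* held number 9 in 35.6%.

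**Figure D5:**
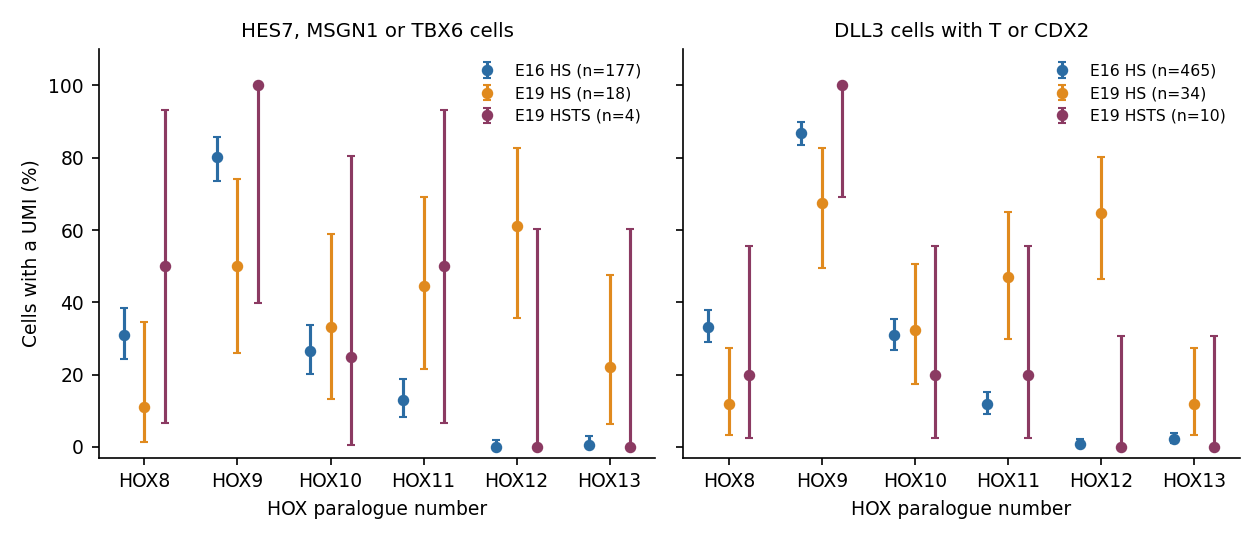
Share of cells with at least 1 UMI of a HOX gene of each paralogue number (%), in cells with *HES7*, *MSGN1* or *TBX6* (left) and in *DLL3* cells with *T* or *CDX2* (right). Points are shares, bars are exact binomial intervals at the 95% level, and n is the number of cells. HOX number 12 stands at 61.1% and 64.7% in E19 HS and under 1% in E16 HS.

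A large part of the *DLL3* cells held none of the sorting genes, namely 551 (40.1%) in E16 HS, 238 (39.8%) in E19 HS and 139 (31.4%) in E19 HSTS. Their *DLL3* came to 2.24, 1.34 and 1.42 UMIs per cell. Neuronal *DLL3* cells had 2.26, 3.37 and 3.31, and caudal or presomitic ones 4.34, 4.54 and 1.25. The cells with none of the sorting genes held 29%, 21.9% and 18.2% of the *DLL3* UMIs. In E16 HS, 42.6% of them held another of 15 caudal genes against 19.3% of the cells without *DLL3* and without sorting genes, and 27.8% held another of 12 somite genes against 13%. In E19 HS these shares were 25.2% against 13.6% and 30.3% against 17.3%, and in E19 HSTS 26.6% against 11.4% and 41.7% against 16.9%. Another of 10 neuronal genes was in 4.54% against 2.51%, 9.24% against 2.61% and 9.35% against 2.75%.

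The wider gene lists differed unequally between stages. Of 15 caudal and tail bud genes with at least 20 UMIs, 11 were past 2-fold higher at E16 and none lower (background 8.06% and 7.89%), with a median log2 ratio of 1.59 where that of all genes was 0.21. They included *CDX4* (7.67), *FGF17* (8.0) and *CYP26A1* (3.4), which degrades retinoic acid, with ratios in brackets. Of 15 Notch genes, *DLL1* was past 2-fold higher at E16 (2.61, 2.41 to 2.84) and *LFNG* (0.49), *HES5*, *HEY2* and *NRARP* were lower, with a median log2 of -0.34. Of 12 WNT and FGF targets of the clock none was past 2-fold. Of 11 somite genes *RIPPLY2* was higher (3.59) and *MEOX2* and *PAX1* lower. All 12 neuronal genes were past 2-fold lower at E16, with a median log2 of -2.90. *NEUROD4* had a ratio of 0.0509. Of the other lists, 5 of 6 endothelial genes were lower at E16, and none of 4 surface ectoderm or 4 hindgut genes was past 2-fold. The part of these cell types in the *DLL3* ratio was not tested.

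Between breeds at E19 few genes of these lists were past 2-fold, against backgrounds of 3.30% lower and 2.40% higher. Of 13 caudal genes *T* (ratio of E19 HSTS to E19 HS 0.107), *FGF17* (0.0469, from 2 against 38 UMIs) and *CYP26A1* (0.477) were lower and none higher, with a median log2 of -0.54 against -0.05 for all genes. Of 16 Notch genes none was past 2-fold, and *DLL1*, at 1.09 (0.986 to 1.20), and *LFNG*, at 0.559 (0.480 to 0.649), lay on different sides of 1. Of 11 clock targets *DKK1* (0.484) and *SNAI1* (0.446) were lower. Of 11 somite genes *RIPPLY1* (0.465, 0.211 to 0.974) was lower, and of 12 neuronal genes *NEUROD1* (2.27) was higher. *HOXC12* was at 0.311 CPM in E19 HSTS and 2.84 CPM in E19 HS. The red cell list also differed, with 5 of 8 genes past 2-fold higher in E19 HSTS and a median log2 of 1.21, and its part in the ratios of the other lists was not tested.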

How the data were processed

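Whole embryos were dissociated by the authors, with red blood cell lysis, and cells were captured with a droplet 3′ kit. The deposited values are raw counts of UMIs, which the authors made with Cell Ranger 6.1.2 and did not normalize. The sheep reference genome is named Ovis_aries_genome_v1.0 in the study's methods, and no coordinates are given here. The deposited tables held 128271878 UMIs for E16 HS, 94754580 for E19 HS and 107817481 for E19 HSTS. E16 HSTS was not analysed here.

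A cell was kept if it had 200 to 6000 genes, a total of 1000 to 30000 UMIs, and no more than 10% of them mitochondrial, which left 89.6%, 88.1% and 86.5% of the cells of E16 HS, E19 HS and E19 HSTS. UMIs of a gene were summed over kept cells and divided by all their UMIs. Genes with at least 20 UMIs over the 2 libraries compared entered counts past 2-fold, with 0 set to a floor of 3 counts. Detection means at least 1 UMI. Thinned shares are means over all possible draws of 3000 UMIs. The HOX groups hold only genes with a symbol, of numbers 8 to 13. No sequences are shown, since no table of them was at hand.

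The genes named are the 4 members, their partners, the genes of the lists, HOX genes, and the 5 genes with the highest phi per member and library. Phi was computed for genes in at least 20 cells, in libraries with at least 20 member cells, and some of these genes are not reported here. The members and lists were chosen with earlier results of these data known. No doublets were removed. Scrublet in scanpy 1.11.5 marked 244 cells of E16 HS, 1 of E19 HS and 119 of E19 HSTS, so it did not work for E19 HS, and the top 8% of cells by score were left out as an alternative. The other alternatives were a filter of 500 to 6000 genes and under 5% mitochondrial UMIs, all deposited cells, no red cells, thinned cells, TMM factors of edgeR 4.0.16, at least 2 UMIs of the member, and minimums of 100 or 1 UMI of a gene. Intervals, thinning and the expectation by independence were tested on simulated data. Python 3.11.15, numpy 2.4.6, scipy 1.17.1 and pandas 2.3.3 were used.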

Additional observations from a re-analysis of the deposited data

How the results depend on the processing

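No paired analysis was possible because each condition has 1 library. Of 104 alternative values, 89 lay within the interval of the value reported (counts of genes within 1.5 times) and no ratio turned in direction. Intervals that rest on few UMIs or cells at E19 were too wide for a value to leave them easily. Examples are the *TBX6* share with *T* or *CDX2* in E19 HSTS (0 to 84.2%) and the *HES7* ratio between breeds (0.00323 to 1.22). Over the alternatives the ratios of E16 HS to E19 HS ran from 11.9 to 15.4 for *HES7*, 4.25 to 6.84 for *MSGN1* and 6.46 to 9.94 for *TBX6*. The *DLL3* ratio of E16 HS to E19 HS, 2.29, moved to 2.13 without red cells, 1.79 with thinned cells and 1.98 with TMM factors. That of E19 HSTS to E19 HS, 0.666, moved to 0.831 without red cells and 0.589 without the highest doublet scores. With thinned cells a neuron gene was in 9.08% of the *DLL3* cells of E16 HS, under the 10.9% of its other cells, and *T* or *CDX2* in 41.6% of its *TBX6* cells. With at least 2 UMIs of the member, a neuron gene was in 73.9% of the *DLL3* cells of E19 HS and 77.4% of those of E19 HSTS. The only *TBX6* cell of E16 HS with 2 UMIs held *T* or *CDX2* (100%) and no *MEOX1* (0%), and no *TBX6* cell at E19 had 2 UMIs. Genes past 2-fold numbered 2253 between stages and 798 between breeds, 1314 and 314 with a minimum of 100 UMIs, and 4820 and 3178 with a minimum of 1.

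Added after the data were seen, *DLL3* in *T* or *CDX2* cells had 4 further settings under which 37.0%, 19.1% and 5.56% in E16 HS, E19 HS and E19 HSTS stayed within their intervals, and thinned cells gave 23.2%, 12.8% and 2.34%. The *DLL3* ratio between breeds in *NEFM* or *STMN2* cells, 0.947, moved to 0.843 without the highest doublet scores. Why these values moved was not tested, except that thinning and higher minimums leave fewer UMIs or genes. At E19 the rare genes rest on 1 to 12 UMIs, which limits every statement on them there.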
